A study of Mus musculus with 12 samples.

Results

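The genes described are those that encode the proteins of the cytoplasmic ribosome. They were taken from a table of normalized read counts as the protein-coding rows whose symbol is Rpl, Rps or Rplp followed by a number, alone or with the ending a, x or l1, together with Rpsa. This gave 78 of the 38250 rows of the table, 30 of the small subunit and 48 of the large subunit. All 78 passed the filter on low values, which asked for 5 normalized counts or more as the average of the 12 libraries.

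Erythroid cells from the fetal liver of CD1 mice at e14.5 were kept for 48 h on a layer of stromal cells with 2 U/mL erythropoietin, the hormone that red cell precursors need. The 4 groups of 3 libraries were IkNull/OP9-DL1, IkWT/OP9-DL1, IkNull/OP9 and IkWT/OP9. OP9 is a mouse bone marrow stromal line, and OP9-DL1 is the same line made to express the NOTCH ligand Delta-like 1 at all times. The study asked how the transcription factor IKAROS and a NOTCH signal act on gene expression together. Per the study's methods, IkNull embryos lack the last translated exon of Ikzf1, the gene of IKAROS, have no IKAROS protein in any tissue, and were compared with wild-type littermates. Those methods describe a sort for Ter119, a red cell surface marker, whereas the sample labels name Ter119+ cells and describe passage through a filter. Ikzf1 had 2719, 2314 and 1721 normalized counts in IkNull/OP9-DL1 libraries, against 2721, 2700 and 2599 in IkWT/OP9-DL1 libraries. The corresponding values were 2633, 2190 and 1817 in IkNull/OP9 libraries and 2534, 2573 and 2424 in IkWT/OP9 libraries. Since these values sum all exons, they cannot show the loss of the last exon, and the genotype labels were not tested by them.

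Ribosomal proteins join ribosomal RNA to form the subunits that translate mRNA, and nearly every cell makes them in roughly balanced amounts. Many of their mRNAs begin with a run of pyrimidines, the 5′ terminal oligopyrimidine (TOP) tract, through which the growth-sensing kinase mTORC1 controls their translation. Red cell precursors depend on them heavily, and inherited loss of 1 copy of any of several of these genes in humans causes Diamond-Blackfan anemia, a failure of red cell production.

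The starts of several members are shown because the TOP tract is the sequence that these mRNAs have most in common. Promoter entries from RefSeq (GRCm38.p6) matched 58 of the 78 members. Each line gives the 30 bases centred on the annotated start, 15 before it and 15 from it on, on the strand of the gene, with a run of a C and at least 4 further pyrimidines within 5 bases of the start in capitals.
Rps27: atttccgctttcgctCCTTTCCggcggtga
Rps18: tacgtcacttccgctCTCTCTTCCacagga
Rps10: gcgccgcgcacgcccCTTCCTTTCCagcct
Rpl15: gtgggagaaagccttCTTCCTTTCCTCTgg
Rpl28: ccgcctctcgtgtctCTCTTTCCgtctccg
Rpl34: ccttccttttcctCTTCCggggacggtgct
Rpl22l1: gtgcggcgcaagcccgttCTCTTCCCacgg
Rps2: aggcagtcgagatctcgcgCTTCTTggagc
Rps19: ccgcacggtgagtgagggctctgggtcgcg
In the same order the windows are chr3:90213634-90213663 (minus strand), chr17:33955651-33955680 (minus), chr17:27635230-27635259 (minus), chr14:18270972-18271001 (minus), chr7:4792950-4792979 (plus), chr3:130730323-130730352 (minus), chr3:28805493-28805522 (plus), chr17:24720048-24720077 (plus) and chr7:24884661-24884690 (plus).

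A tract lay within 5 bases of the start in 26 of the 58 members (44.8%), against 18.3% of 32851 RefSeq mouse promoters. It began exactly at the start in 12 members (20.7%), against 2.51% of the promoters. The tracts were 5 to 17 bases long, with a median of 8. The result depends on the annotated start, which for Rps2 lay 188 bases from the start of its GENCODE transcript, for Rpl22l1 72 bases and for Rps27 3 bases. Rps19 held no such tract at the RefSeq start. In the window from 250 bases before to 50 after the start, on either strand, CCGGAAG, a core recognized by ETS factors such as GABPA, was found in 22 members (37.9%), against 8.86% of promoters. AAGATGG, a core of YY1 sites, was found in 9 (15.5%, against 6.34%). GGGCGG, the core of SP1 sites, was found in 36 (62.1%, against 35.7%). TATAAA was found in 6 members (10.3%, against 13.6%). The IKAROS core TGGGAA was found in 13 members (22.4%), against 25.6% of promoters, and GTGGGAA, bound by the NOTCH partner RBPJ and containing the IKAROS core, in 4 (6.9%, against 6.38%). These matches describe the letters only.

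The libraries held 19889576 to 31624477 reads, recovered from the whole steps in which the normalized counts occur. Markers of cells other than the erythroid cells were found in every library, and most were higher in IkNull cultures. Summed megakaryocyte markers (5 of 5 found) ran from 2751 to 8411 in IkNull libraries, against 413 to 1068 in IkWT libraries. Macrophage markers (5 of 6 found) ran from 2536 to 9011, against 687 to 1853, stromal markers (6 of 6) from 2326 to 4103, against 1464 to 1903, and progenitor markers (4 of 4) from 424 to 803, against 74 to 353. Neutrophil markers (5 of 5) ran from 9866 to 38625, against 2966 to 23460, lymphoid markers (5 of 5, Cd3e at 0 in every library) from 57 to 368, against 44 to 97, and hepatocyte markers (4 of 4) from 2597 to 7174, against 3003 to 8444. Erythroid markers (8 of 8) summed to 3896493 to 7030942, against 2645326 to 5037391, a sum made up mostly of the globins Hbb-b1 and Hba-a1. Not every marker followed its sum. Gp9, a megakaryocyte marker, ran from 46.3 to 109.0 in IkNull/OP9-DL1 libraries, against 83.9 to 122.8 in IkWT/OP9-DL1 libraries. The other megakaryocyte markers were higher in every IkNull library than in any IkWT library. Sparc, a stromal marker, ran from 190.5 to 296.4 in IkNull/OP9 libraries, against 171.0 to 315.4 in IkWT/OP9 libraries. On OP9 the other stromal markers were higher in IkNull libraries without overlap. Tfrc, the transferrin receptor that brings iron into red cell precursors, was lower in IkNull libraries, at 73140 to 158322 on OP9-DL1, against 175138 to 295169 in IkWT libraries, and at 90481 to 150661 on OP9, against 163027 to 281827 in IkWT libraries. Klf1, a master regulator of erythroid genes, ran from 5995 to 11373 in IkNull/OP9-DL1 libraries, against 11098 to 18877 in IkWT/OP9-DL1 libraries, and Epor, the erythropoietin receptor, from 2096 to 4425, against 3402 to 6402, both with an overlap. Their part in the results on ribosomal protein genes was not tested, and in bulk samples fewer cells of a type and less RNA per cell cannot be told apart.

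Ribosomal protein genes took a smaller share of all normalized counts in IkNull cultures than in IkWT cultures. On OP9-DL1 the share was 3.33%, 3.28% and 4.30% in IkNull libraries, against 4.53%, 5.04% and 4.92% in IkWT libraries. On OP9 it was 3.58%, 3.66% and 4.36% in IkNull libraries, against 4.49%, 5.05% and 4.70% in IkWT libraries. The genotypes did not overlap on either stroma, and IkNull replicate 3 lay nearest to IkWT on both. The means were 3.64 ± 0.575% and 4.83 ± 0.267% on OP9-DL1, and 3.87 ± 0.429% and 4.75 ± 0.283% on OP9 (IkNull, then IkWT, SD, n = 3 each). No p-value was computed for this sum over the members.

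The globin genes, the most abundant mRNAs of red cell precursors, had higher mean shares in IkNull cultures, with an overlap on OP9. Their 13 rows took 15.5% to 24.0% of the counts in IkNull/OP9-DL1 libraries, against 12.6% to 14.3% in IkWT/OP9-DL1 libraries, and 15.2% to 23.1% in IkNull/OP9 libraries, against 12.9% to 15.3% in IkWT/OP9 libraries. With globin counts left out of the total, the share of ribosomal protein genes ran from 4.31% to 5.14% in IkNull libraries, against 5.29% to 5.81% in IkWT libraries, again without overlap. The sum itself, on the authors' scaling, overlapped: 976373 to 1048600 normalized counts in IkNull libraries, against 922594 to 1331570 in IkWT libraries. Totals of all normalized counts ran from 23145016 to 30026638 in IkNull libraries, against 18285417 to 29685344 in IkWT libraries. Small-subunit genes supplied 38.7% to 40.9% of the ribosomal protein counts in IkNull libraries, against 40.6% to 40.9% in IkWT libraries.

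**Figure D1:**
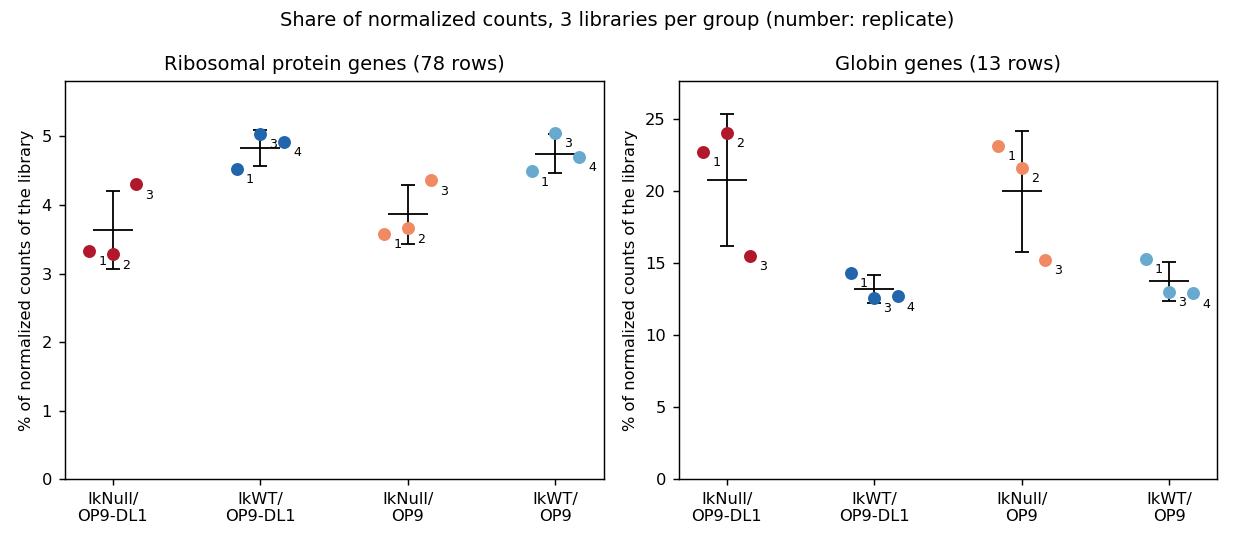
Percent of the normalized counts of each library on the 78 ribosomal protein genes (left) and on 13 globin rows (right), for 3 libraries in each of 4 groups. Points are libraries with their replicate number, and black bars give the mean ± SD. The ribosomal protein share was 3.28% to 4.36% in IkNull libraries and 4.49% to 5.05% in IkWT libraries.

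Gene by gene, none of the 78 members passed the test for a change with genotype on the authors' scaling. To be called, a gene needed an adjusted p under 0.05 in limma (Benjamini-Hochberg, over 13769 genes) and a change of 0.8 or more in either direction on the log2(normalized count + 1) scale. In IkNull/OP9-DL1 against IkWT/OP9-DL1, 0 members were called higher and 0 lower, while 9.41% of all genes tested were called higher and 4.65% lower. In IkNull/OP9 against IkWT/OP9, 0 members were again called in either direction, against 6.69% of all genes higher and 2.83% lower. Before adjustment, limma gave 1 member higher at p under 0.05 (Rps2) and 3 lower (Rpl22l1, Rps27 and Rps27a) on OP9-DL1, and 1 higher (Rps2) and 0 lower on OP9. The share of all genes at that unadjusted cut was not counted, so these numbers cannot set the members apart from other genes. On recovered reads of all 12 libraries, edgeR and DESeq2 each called 0 members in both comparisons. On the 10 libraries without IkNull replicate 3, whose steps of 1.0048 and 1.0073 lie close to 1, each called 1 member higher on OP9-DL1 (Rps2) and 0 on OP9. Of all genes, edgeR called 5.75% higher on OP9-DL1 in those libraries and DESeq2 10.1%.

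Most fold changes of the members were small and below 0. The median log2 fold change was -0.16 in IkNull/OP9-DL1 against IkWT/OP9-DL1, where the median over all genes was 0.03, and 64 members lay below 0 (48.4% of all genes did). It was -0.11 in IkNull/OP9 against IkWT/OP9, where the median over all genes was 0.00, and 59 members lay below 0 (49.8% of all genes did). The libraries of the comparisons differ, but those of the same genotype and replicate number deviated together. Small-subunit members had medians of -0.23 on OP9-DL1 and -0.15 on OP9, with 27 and 24 of 30 below 0. Large-subunit members had medians of -0.14 and -0.08, with 37 and 35 of 48 below 0. The 19 members known as Diamond-Blackfan anemia genes had medians of -0.21 and -0.16. Members with a TOP tract near the start had medians of -0.21 and -0.14 (26 members), and those without had -0.16 and -0.10 (32 members).

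The lower medians rested on 1 IkWT culture. IkWT replicate 1 was high on both stromas: 75 members on OP9-DL1 and 74 on OP9 lay above their own mean over the 12 libraries, with median deviations of 0.30 and 0.37 on the log2 scale, and 58 members had their highest value of all in IkWT/OP9 replicate 1. Without IkWT replicate 1 on both stromas, an alternative added after the data were seen, the medians were -0.04 on OP9-DL1, with 44 members below 0, and 0.05 on OP9, with 30 below 0. The share of the total did not rest on that culture, whose 4.53% and 4.49% were the lowest of the IkWT values.

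**Figure D2:**
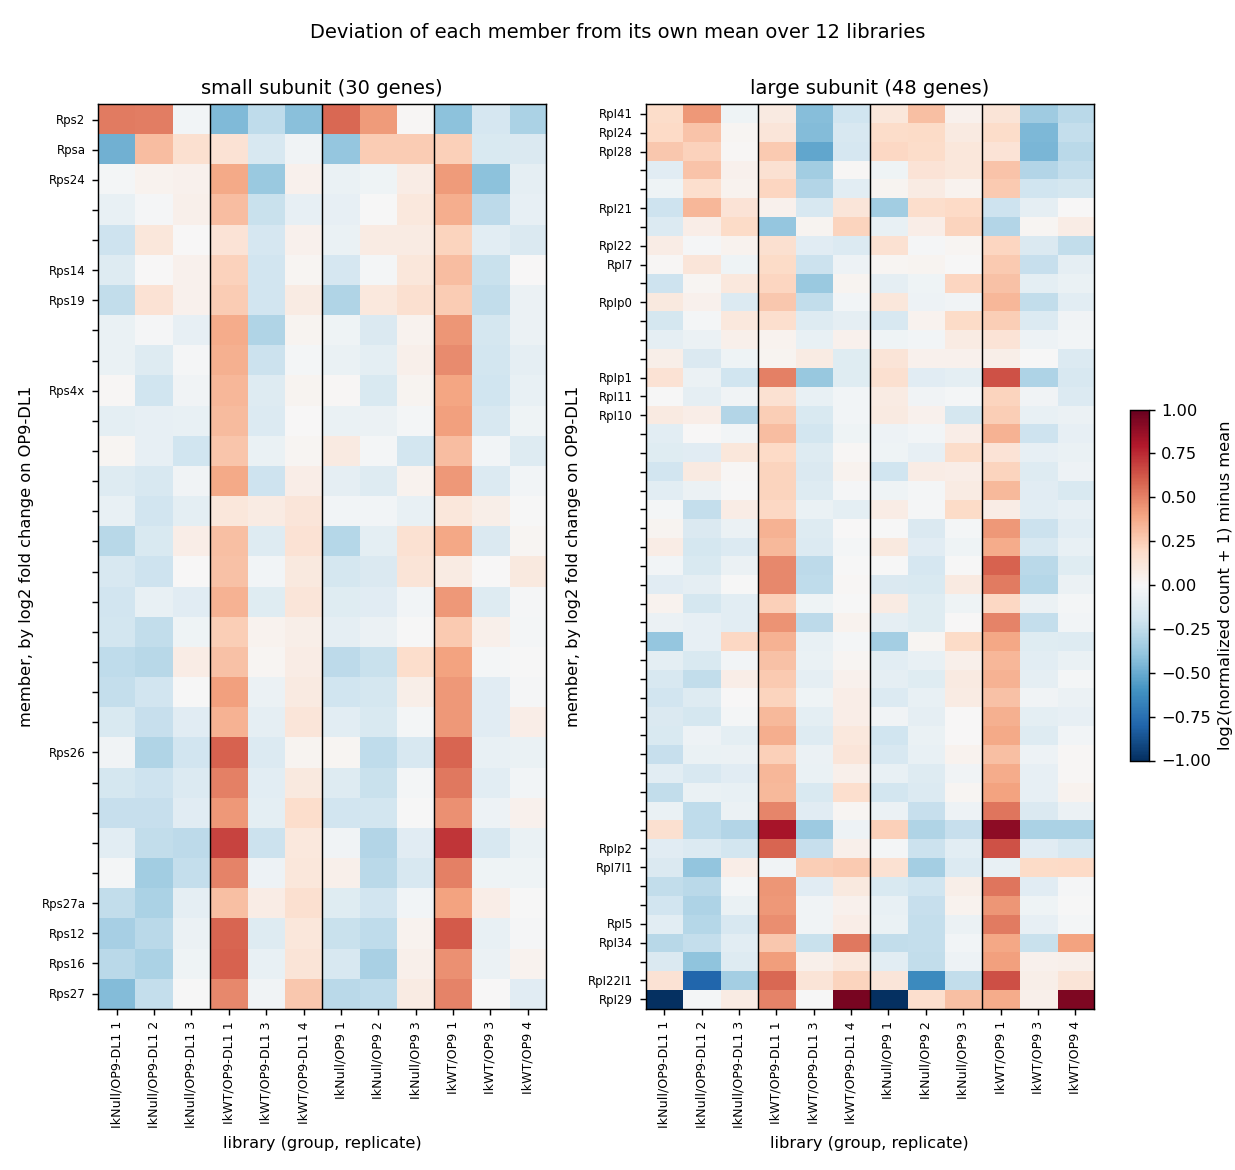
Deviation of log2(normalized count + 1) from the member's own mean, for 30 small-subunit genes (left) and 48 large-subunit genes (right) in 12 libraries. Columns are libraries by group and replicate, rows run from the highest log2 fold change on OP9-DL1 at the top to the lowest with only some members labelled, and red is above the mean. The columns of IkWT replicate 1 are red for 75 members on OP9-DL1 and 74 on OP9, and Rps2, Rpl29 and Rpsa show other patterns.

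The scaling changed how many members passed. When every library was set to the same total of normalized counts, the median of all genes moved to -0.26 on OP9-DL1 and -0.21 on OP9. That of the members moved to -0.45 and -0.33. The members lay 0.19 and 0.11 below all genes on both scalings. Dividing a library by 1 factor shifts all its genes alike, so this gap could not change with the scaling. Log2 fold changes of 74 of 78 members were then below 0 in each comparison, as were those of 61.7% of all genes on OP9-DL1 and 61.2% on OP9. Without a minimum fold change, limma with Benjamini-Hochberg adjustment gave 29 members lower on OP9-DL1, where 15.1% of all genes were lower, and 3 lower on OP9, where 8.33% of all genes were. On the authors' scaling the same rule gave 1 member higher (Rps2) and 0 lower on OP9-DL1, where 9.96% of all genes were higher and 7.25% lower, and 0 members on OP9, where 7.0% were higher and 3.78% lower. With the total outside the globin genes, 19 members were lower on OP9-DL1, where 10.8% of all genes were, and 0 on OP9, where 5.94% were, with members' medians of -0.32 and -0.22 beside -0.13 and -0.11 for all genes. These scalings and the rule without a minimum were combined after the data were seen.

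Counted by libraries that do not overlap on the authors' scaling, 1 member (Rps2) was higher in all 3 IkNull/OP9-DL1 libraries than in all 3 IkWT/OP9-DL1 libraries, where 17.1% of all genes were. Lower without overlap were 10 members, where 16.9% of all genes were: Rpl4, Rpl5, Rpl8, Rpl13, Rps3, Rps6, Rps10, Rps13, Rps25 and Rps27a. On OP9, Rps2 was the member higher without overlap (17.1% of all genes), and Rpl8, Rps25 and Rps27a were lower (16.7% of all genes). As shares of the library total, 44 members were lower without overlap on OP9-DL1, where 26.0% of all genes were, and 38 on OP9, where 23.6% were.

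**Figure D3:**
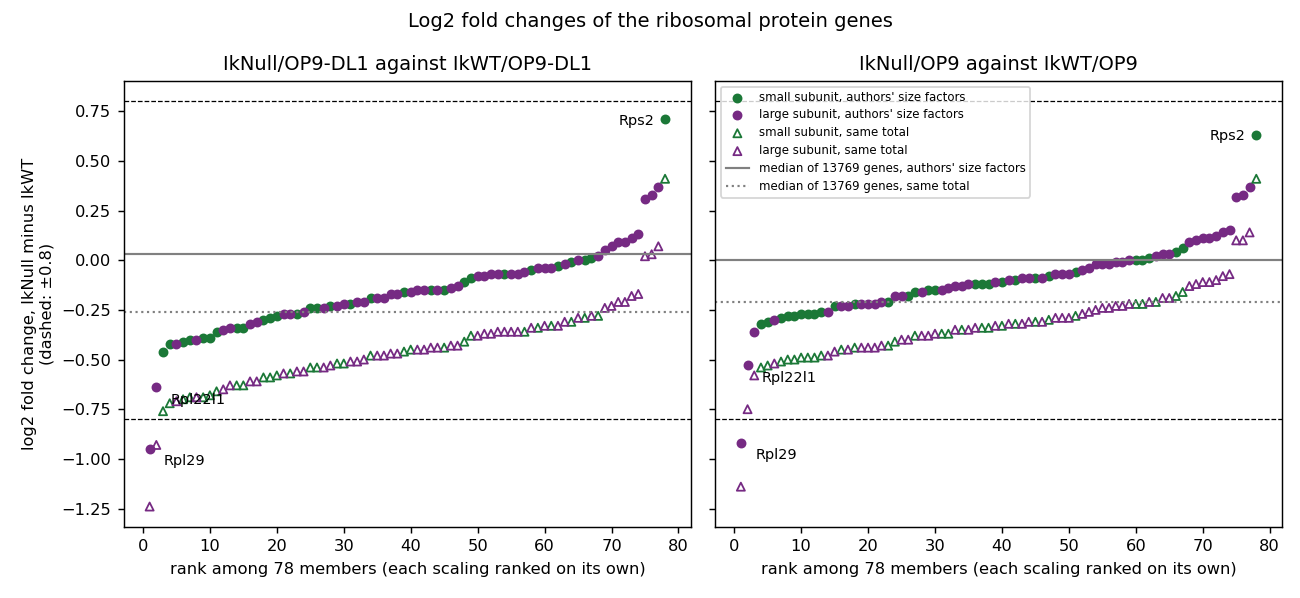
Log2 fold changes of the 78 members, IkNull minus IkWT, on OP9-DL1 (left) and OP9 (right), ranked within each scaling. Filled circles use the authors' size factors and open triangles the same total for every library, green marks the small and purple the large subunit, and grey lines are the medians of all 13769 genes. The members' medians were -0.16 and -0.45 on OP9-DL1 and -0.11 and -0.33 on OP9, and Rps2 stands above the rest on both stromas.

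Rps2, a small-subunit protein at the channel where mRNA enters the ribosome, was the member with the highest fold change (chromosome 17, 24718116 to 24721929, GRCm38). It had 17943, 17799 and 12236 normalized counts in IkNull/OP9-DL1 libraries, against 9178.5, 10463 and 9330 in IkWT/OP9-DL1 libraries. On OP9 it had 18575, 16773 and 12626 in IkNull libraries, against 9391, 11147 and 10042 in IkWT libraries. Every IkNull library lay above every IkWT library, and IkNull replicate 3 was the lowest of the IkNull values on both stromas. The log2 fold change was 0.71 ± 0.21 (SE) on OP9-DL1 and 0.63 ± 0.21 on OP9, with limma adjusted p-values of 0.0424 and 0.0764, both under the minimum of 0.8. Without IkNull replicate 3 on both stromas it was called on OP9-DL1 (0.89, limma adjusted p = 0.0242), where 5.46% of all genes were called higher. On OP9 it was then 0.80 (limma adjusted p = 0.0467), just under the minimum. At the same total it was 0.41 on each stroma (limma adjusted p = 0.248 and 0.28).

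Rps2 shares 76.8% of its 50-base stretches with other transcripts, so reads can be divided among rows. The copies Rps2-ps10, Rps2-ps13 and Gm12922 held 23.8% of the sum of the 4 rows. Rps2-ps10 had 4127, 3773 and 2702 normalized counts in IkNull/OP9-DL1 libraries, against 4342, 2413 and 2077 in IkWT/OP9-DL1 libraries, and was highest in IkWT/OP9 replicate 1 (4506), where Rps2 itself was lowest of its group. With the 3 copies added, a calculation made after the data were seen and with no test, the log2 fold change of the sum was 0.59 on OP9-DL1 and 0.51 on OP9.

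Rpl22l1, the paralog of Rpl22 whose mRNA the Rpl22 protein holds down in mouse, had the second lowest fold change (chromosome 3, 28805436 to 28807424, GRCm38). It had 2541, 1329 and 1823 normalized counts in IkNull/OP9-DL1 libraries, against 3433, 2517 and 2689 in IkWT/OP9-DL1 libraries. On OP9 it had 2503, 1481 and 1941 in IkNull libraries, against 3592, 2402 and 2514 in IkWT libraries. IkNull replicate 1 overlapped the IkWT range on both stromas, and the other IkNull libraries lay below it. The log2 fold change was -0.64 ± 0.27 on OP9-DL1 and -0.53 ± 0.27 on OP9, with limma adjusted p-values of 0.122 and 0.219. Only replicate numbers 1 and 3 occur in both genotypes, and they alone carry the genotype estimate in the fit blocked on replicate number. In that fit the log2 fold change was -0.49 (limma adjusted p = 0.00587) and -0.38 (0.0204), under the minimum of 0.8. Rpl22l1 was called on OP9-DL1 at the same total (-0.93, limma adjusted p = 0.0231), where 11.5% of all genes were called lower. It was also called there with the total outside the globin genes (-0.80, limma adjusted p = 0.0393), where 7.65% were. Without IkNull/OP9-DL1 replicate 1 it was called as well (-0.87, limma adjusted p = 0.0364), where 8.43% were. Rpl22 itself, a large-subunit protein needed for T cell development in mouse, had 5571 to 5910 normalized counts in IkNull/OP9-DL1 libraries, against 5090 to 6270 in IkWT/OP9-DL1 libraries, and log2 fold changes of 0.07 ± 0.17 and 0.11 ± 0.17.

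Rpl29, without which mice are small but viable, had the lowest fold changes of all members and the largest spread between replicates (chromosome 9, 106429454 to 106431568, GRCm38). It had 131, 356 and 383 normalized counts in IkNull/OP9-DL1 libraries, against 511, 361 and 699 in IkWT/OP9-DL1 libraries, and 97.6, 407 and 446 in IkNull/OP9 libraries, against 469, 375 and 693 in IkWT/OP9 libraries. IkNull replicate 1 was lowest and IkWT replicate 4 highest on both stromas, and the groups overlapped. The log2 fold changes were -0.95 ± 0.57 and -0.92 ± 0.57, with limma adjusted p-values of 0.26 and 0.306. Without IkNull/OP9-DL1 replicate 1 the OP9-DL1 value was -0.45.

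Rows that share the sequence of Rpl29 followed its spread between cultures, some opposite to it and some with it. Gm13841 had 860 and 928 normalized counts in IkNull replicate 1 (OP9-DL1 and OP9), against 13.2 and 13.3 in IkWT replicate 4. Gm8210 had 602 and 646 in IkNull replicate 1, and 0 in IkWT replicate 4 on both stromas. Both were thus highest where Rpl29 was lowest and lowest where it was highest, while Gm17669 ran with Rpl29, at 5.2 and 4.9 in IkNull replicate 1 and 320.9 and 270.4 in IkWT replicate 4. The sum of Rpl29 with Gm13841, Gm8210 and Gm17669 had log2 fold changes of 0.16 and 0.28, above 0 where Rpl29 alone was below, and the SD within groups on the log2 scale was 0.27 for the sum, against 0.82 for Rpl29 alone. Uimc1, a gene of its own that shares 59.7% of the stretches, was not added.

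Rpsa, also known as the laminin receptor and mutated in human congenital asplenia, showed the same division between rows in IkNull replicate 1. It had 24734, 42669 and 38618 normalized counts in IkNull/OP9-DL1 libraries, against 38256, 30892 and 33713 in IkWT/OP9-DL1 libraries, and 26428, 41101 and 41118 in IkNull/OP9 libraries, against 40683, 31077 and 31234 in IkWT/OP9 libraries. Rpsa-ps10 had 10460 and 10871 in IkNull replicate 1, and 850 to 1292 in the other 10 libraries. Rpsa was lowest in the libraries where Rpsa-ps10 was highest. Its log2 fold changes were 0.01 ± 0.28 and 0.06 ± 0.28, and those of the sum 0.17 and 0.21, with an SD within groups of 0.17 for the sum, against 0.31 for Rpsa alone.

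Rpl26, a Diamond-Blackfan anemia gene whose protein binds the p53 mRNA, was lowest in IkWT replicate 1 (5719 on OP9-DL1 and 6080 on OP9), the culture in which most members were highest. Gm15772 had 7613 and 8154 normalized counts there, and 2798 to 3450 in the other 10 libraries. The log2 fold changes of Rpl26 were 0.09 ± 0.20 and 0.14 ± 0.20, and those of the sum were -0.15 and -0.10. Rpl34 was highest in IkWT replicate 4 (9839 and 9039), where Rpl34-ps1 had 247 and 238 normalized counts, against 1124 to 1694 elsewhere. Its log2 fold changes were -0.40 ± 0.23 and -0.36 ± 0.23 alone, and -0.32 and -0.28 as a sum. The reason why these rows differ between cultures was not tested, and the rows were examined after the values were seen.

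**Figure D4:**
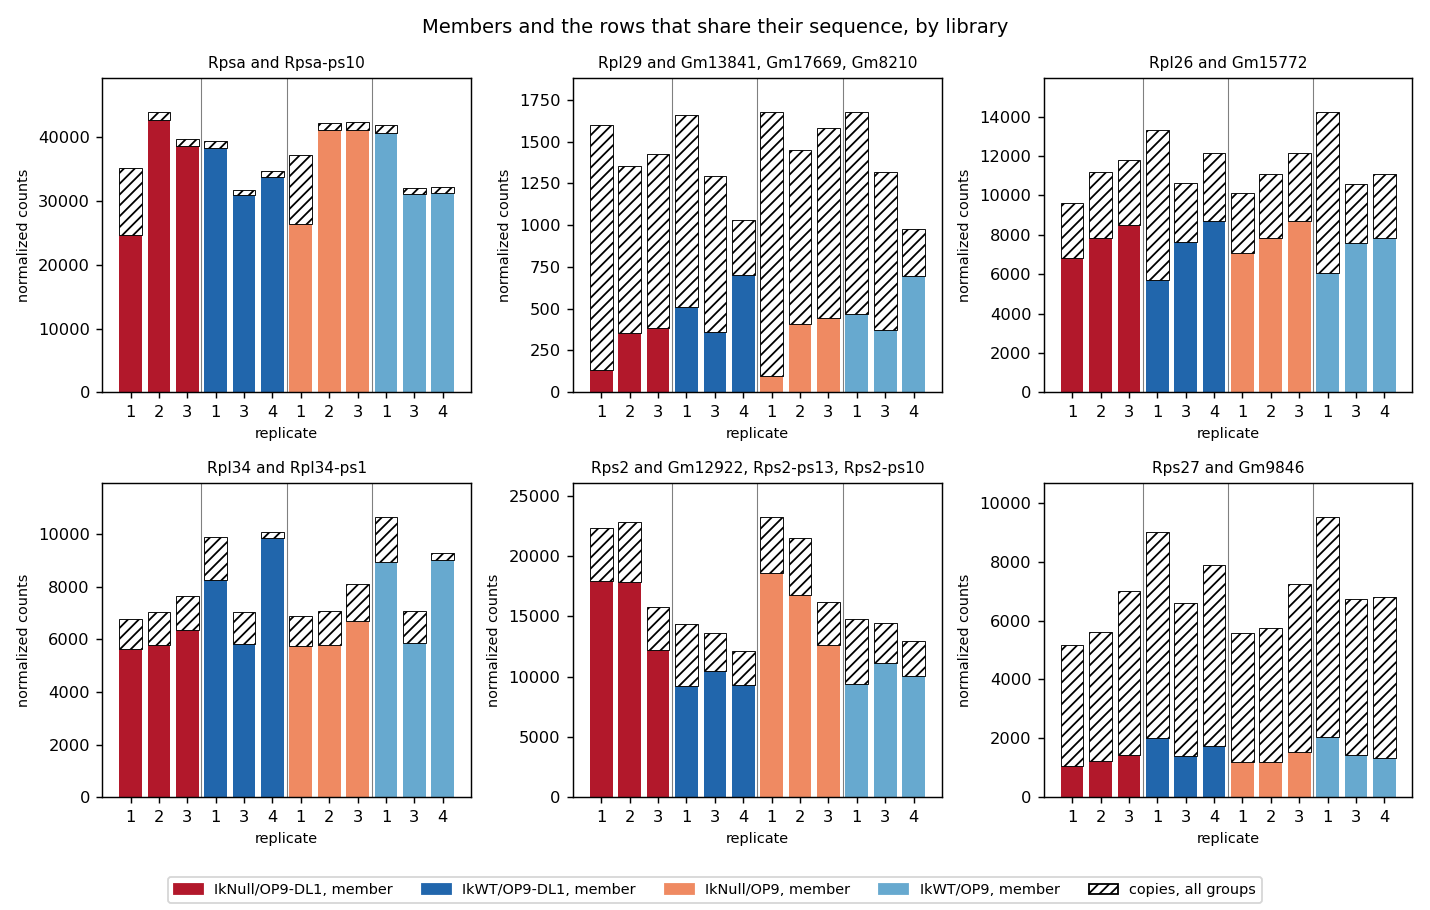
Normalized counts of 6 members (coloured bars) in 12 libraries, ordered by group and replicate. Hatched bars, stacked on top, are rows with a -ps or Gm name that share at least 25% of the member's 50-base stretches. Rows with other names, such as Uimc1 for Rpl29, are not included. The sums vary less than Rpl29 and Rpsa alone: the SD within groups on the log2 scale is 0.27 against 0.82 for Rpl29 and 0.17 against 0.31 for Rpsa.

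Most members share sequence with such rows. A median of 60.6% of their 50-base stretches occurred in other GENCODE transcripts, and 47 members shared at least 50%. Median log2 fold changes were -0.16 and -0.11 in the 47 members with at least 50% shared, and -0.15 and -0.11 in the other 31. Over 51 members with 75 copy rows of at least 50 normalized counts, adding the copies made the SD within groups smaller in 15, larger in 7 and left it equal in 29. It changed by over 0.05 in 3 members, smaller in 2 (Rpl29 and Rpsa) and larger in 1 (Rpl21, 0.31 with copies against 0.23 alone).

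Rps27, a Diamond-Blackfan anemia gene, cannot be told apart from Gm9846, with which and other rows it shares 98.6% of its stretches and which held 78.8% of their sum. Rps27 had 1063, 1220 and 1432 normalized counts in IkNull/OP9-DL1 libraries, against 2008, 1400 and 1731 in IkWT/OP9-DL1 libraries. The groups overlapped through IkNull replicate 3. The log2 fold change was -0.46 ± 0.21 on OP9-DL1 and -0.28 ± 0.21 on OP9 (limma adjusted p = 0.139 and 0.399), and -0.40 and -0.31 for the sum.

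The other small-subunit members tied to inherited anemia lay close to 0 or below it. Rps19, the gene most often mutated in Diamond-Blackfan anemia, had 11027, 14461 and 13493 normalized counts in IkNull/OP9-DL1 libraries, against 15646, 11444 and 13857 in IkWT/OP9-DL1 libraries, which overlap throughout. Its log2 fold changes were -0.07 ± 0.22 and 0.00 ± 0.22. Rps14, lost in the 5q- syndrome, had -0.05 ± 0.20 and -0.06 ± 0.20, and Rps24 had 0.00 ± 0.25 and 0.01 ± 0.25. Rps26 had 9423, 7871 and 8460 in IkNull/OP9-DL1 libraries, against 14554, 8791 and 9871 in IkWT/OP9-DL1 libraries, where only IkNull replicate 1 overlapped the IkWT range. Its log2 fold changes were -0.34 ± 0.24 and -0.28 ± 0.24, and without IkWT replicate 1 on both stromas they were -0.12 and -0.06.

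Rpl5 and Rpl11, which with 5S ribosomal RNA bind the p53 regulator MDM2 when ribosome assembly fails, did not run alike. Rpl5 had 11080, 9783 and 10672 normalized counts in IkNull/OP9-DL1 libraries, against 16492, 11662 and 12490 in IkWT/OP9-DL1 libraries, with no overlap. Its log2 fold changes were -0.35 ± 0.21 and -0.26 ± 0.21 (limma adjusted p = 0.252 and 0.431), and without IkWT replicate 1 on both stromas -0.20 and -0.07. Rpl11 had 6234, 5888 and 6094 in IkNull/OP9-DL1 libraries, against 6933, 5956 and 6149 in IkWT/OP9-DL1 libraries, and log2 fold changes of -0.06 ± 0.15 and -0.01 ± 0.15. The difference between Rpl5 and Rpl11 was not tested.

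Of the stalk proteins, which recruit elongation factors to the large subunit, Rplp0 had log2 fold changes of 0.00 ± 0.26 and 0.02 ± 0.26, Rplp1 -0.04 ± 0.30 and -0.07 ± 0.30, and Rplp2 -0.27 ± 0.25 and -0.23 ± 0.25. Rplp2 in IkWT/OP9-DL1 replicate 1 stood at 16029 normalized counts, against 9130 to 11093 in the other IkWT/OP9-DL1 libraries and 9447 to 9940 in IkNull/OP9-DL1 libraries. Rps27a, made as a fusion with ubiquitin, had 7473, 7130 and 8358 in IkNull/OP9-DL1 libraries, against 10951, 9344 and 9911 in IkWT/OP9-DL1 libraries. It did not overlap there or on OP9, where it had 8159, 7764 and 8732 in IkNull libraries, against 11741, 9299 and 8837 in IkWT libraries. Its log2 fold changes were -0.40 ± 0.17 and -0.27 ± 0.17 (limma adjusted p = 0.119 and 0.31). Rps16, whose tail reaches the transfer RNA in the peptidyl site, had -0.42 ± 0.22 and -0.29 ± 0.22, and Rps12 had -0.41 ± 0.25 and -0.32 ± 0.25.

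Rpl41, the shortest ribosomal protein, Rpl24, which joins the large subunit late, and Rpl28 had the next highest fold changes after Rps2. Rpl28 had 17573, 17031 and 14682 normalized counts in IkNull/OP9-DL1 libraries, against 17399, 10141 and 12939 in IkWT/OP9-DL1 libraries, so that IkWT replicate 1 lay among the IkNull values. The log2 fold changes on OP9-DL1 and OP9 were 0.31 ± 0.23 and 0.37 ± 0.23 for Rpl28, 0.33 ± 0.21 and 0.33 ± 0.21 for Rpl24, and 0.37 ± 0.22 and 0.32 ± 0.22 for Rpl41, with limma adjusted p-values of 0.267 to 0.371. Without IkWT replicate 1 on both stromas they were 0.52 and 0.53 for Rpl28, 0.47 and 0.50 for Rpl24, and 0.50 and 0.47 for Rpl41. At the same total they were 0.02 and 0.14 for Rpl28, 0.03 and 0.10 for Rpl24, and 0.07 and 0.10 for Rpl41. Rpl10, mutated in some human T cell leukemias, had -0.07 ± 0.19 and -0.05 ± 0.19. The X-linked Rps4x had -0.15 ± 0.22 and -0.08 ± 0.22. Rpl7 had 0.05 ± 0.20 and 0.03 ± 0.20 and its paralog Rpl7l1 -0.31 ± 0.18 and -0.21 ± 0.18, and Rpl21 had 0.09 ± 0.20 and 0.11 ± 0.20.

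The stroma moved the members little. In IkWT/OP9-DL1 against IkWT/OP9, 0 members were called by limma (0.00726% of all genes were), and their log2 fold changes ran from -0.09 to 0.11 with a median of 0.02, beside 0.01 for all genes. In IkNull/OP9-DL1 against IkNull/OP9, 0 were called (0.0145% of all genes), and the range was -0.15 to 0.08 with a median of -0.04, beside -0.01. For the interaction of genotype and stroma 0 were called (0.0% of all genes), and the range was -0.20 to 0.07 with a median of -0.06. Libraries of the same genotype and number paired across the stromas, and with that culture as a block 0 members were again called, while 1.47% of all genes were called in IkWT/OP9-DL1 against IkWT/OP9 and 0.734% in IkNull/OP9-DL1 against IkNull/OP9. Of the small fold changes in IkNull cultures, 69 of 78 lay below 0 (51.5% of all genes did). The share of ribosomal protein genes was lower on OP9-DL1 than on OP9 in each of the 3 IkNull cultures, at 3.33% against 3.58% in replicate 1, 3.28% against 3.66% in replicate 2 and 4.30% against 4.36% in replicate 3. In IkWT cultures 60 members lay above 0, and the share was 4.53% against 4.49%, 5.04% against 5.05% and 4.92% against 4.70% in replicates 1, 3 and 4. In all 3 of these comparisons 0 members had an unadjusted p under 0.05 in limma without the block, and 0 were called by edgeR or DESeq2. The share of all genes at that unadjusted cut was not counted here either.

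The members differed far more from each other than between groups. Per kb of transcript, the mean level over 12 libraries ran from 443.8 normalized counts for Rpl7l1 to 64420 for Rplp1, with a median of 14100, and 57 members lay between 0.5 and 2 times that median. Rplp1 was followed by Rplp0 (50150), Rpl41 (42730) and Rps12 (42120), and the lowest after Rpl7l1 were Rpl21 (580.4), Rpl29 (704.5) and Rpl24 (2240). The level of Rpl24 was divided by an annotated transcript of 4920 bases, 3150 of them coding, far longer than the 509 of Rpl41. Its low place rests on that length. Before division its mean was 11020 normalized counts, beside 11340 for Rpl10, whose transcript of 799 bases gave 14200 per kb. Ranked by coding length, Rpl41 was 1st and Rps12 12th, and by all exons Rpl41 was 6th and Rps12 18th, so the order near the top depends on the length used. Rps12 and Rpl41 overlapped over the libraries. Low values of Rpl21 and Rpl29 are uncertain because their copies hold 59.9% and 71.1% of the summed counts.

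**Figure D5:**
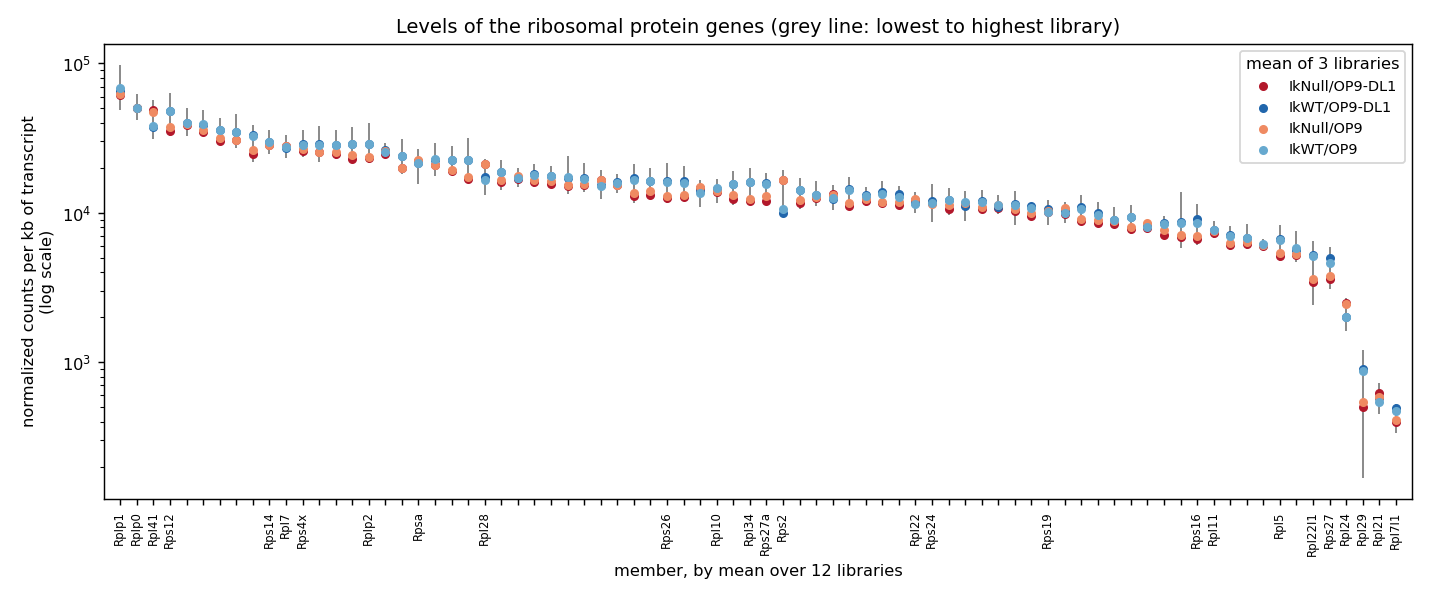
Normalized counts per kb of transcript (log scale) of the 78 members, ordered by their mean over 12 libraries. Points are means of 3 libraries for each of 4 groups, some members are labelled, and grey lines run from the lowest to the highest library. Levels run from 443.8 for Rpl7l1 to 64420 for Rplp1.

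Replicates of a group were close for most members. The SD of log2(normalized count + 1) within groups had a median of 0.21 over the members, against 0.403 over all genes tested and 0.296 over the 4942 genes with a mean above 400. Rpl29 (0.82) and Rpl35a (0.50) had the highest. Rpl35a, a Diamond-Blackfan anemia gene, had 4075, 3057 and 2981 normalized counts in IkNull/OP9-DL1 libraries, against 6477, 2845 and 3523 in IkWT/OP9-DL1 libraries, and 6795 in IkWT/OP9 replicate 1. It was thus high in IkWT replicate 1 on both stromas, and its log2 fold changes were -0.27 ± 0.36 and -0.18 ± 0.36.

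For genes that make or use ribosomes, the counts on the authors' scaling stand beside the 4.65% of all genes called lower on OP9-DL1 and 2.83% on OP9. Of 18 translation factors with TOP mRNAs, 0 were called by limma, and medians were -0.17 on OP9-DL1 and -0.08 on OP9. Of 45 ribosome biogenesis factors tested, 1 fell on OP9-DL1, Sbds, which helps release the factor eIF6 from the large subunit, and medians were -0.13 and -0.06. Sbds had 1170, 799 and 900 normalized counts in IkNull/OP9-DL1 libraries, against 2250, 1370 and 1770 in IkWT/OP9-DL1 libraries, without overlap, a change of -0.90 ± 0.24 on the log2 scale (limma adjusted p = 0.0278). On OP9 its value was -0.79 ± 0.24 (limma adjusted p = 0.0576). Rrp12 went the other way and was not called, at 1.19 ± 0.43 on each stroma (limma adjusted p = 0.0787 on OP9-DL1 and 0.0996 on OP9). Of the 45 factors, 32 lay below 0 and 13 above on OP9-DL1, and 26 below and 19 above on OP9. Of 18 genes of RNA polymerase I and its factors, 0 were called, with medians of -0.23 and -0.10. Ubtf, which opens ribosomal RNA genes for that polymerase, had -0.69 ± 0.23 and -0.64 ± 0.23 (limma adjusted p = 0.0576 and 0.09). At the same total, where 11.5% of all genes were called lower on OP9-DL1, 4 biogenesis factors (Bysl, Gnl2, Sbds and Utp3), 1 translation factor (Eif3l) and Ubtf were called lower there, with medians of -0.43 for the biogenesis factors, -0.47 for the translation factors and -0.53 for the genes of RNA polymerase I, beside -0.26 for all genes.

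The 76 mitochondrial ribosomal proteins had lower medians than the cytoplasmic ones, -0.29 on OP9-DL1 and -0.24 on OP9, a difference that was not tested. Mrpl40 fell on both stromas, by 1.32 on the log2 scale on OP9-DL1 (limma adjusted p = 0.011) and by 0.99 on OP9 (0.0464). Mrpl24 rose on OP9 by 0.85 on the log2 scale (limma adjusted p = 0.0137), with 0.80 on OP9-DL1, just under the minimum (0.0143). Of the ribosomal proteins outside the rule that were tested, Rps27l, a target of p53 in human cells, had 0.43 ± 0.14 and 0.31 ± 0.14 (limma adjusted p = 0.056 and 0.167). Fau, made as a fusion with a ubiquitin-like protein, had -0.20 and -0.12, and Rpl36al -0.01 and -0.02.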

How the data were processed

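Libraries were made from mRNA with the TruSeq kit and sequenced on a HiSeq2000. Per the labels and the study's methods, the authors aligned reads to GRCm38/mm10 with TopHat2 2.0.9, counted them per gene with HTSeq 0.5.3, and divided the counts by a size factor per library (DESeq2 1.0.19 in the submitters' processing notes, which also name CASAVA 1.8). The deposited values are therefore a signal in normalized counts, not counts. The sources used here do not give the strand setting or the annotation release. Tables of the authors' own comparisons (fold changes and p-values) were not used.

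Values were tested as log2(normalized count + 1) with limma 3.58.1 in R 4.3.3 (4 group means, moderated with a trend), on 13769 genes with a mean of at least 5. A pair of genotype comparisons, a pair of stroma comparisons and the interaction were made. Whole reads were recovered for 100.0% of values (tolerance 0.01 of a read). On 10 libraries, edgeR 4.0.16 called 792 genes higher and 428 lower in IkNull/OP9-DL1 against IkWT/OP9-DL1, and DESeq2 1.42.0 called 1387 and 586. The fits were also run on simulated data with independent libraries and larger changes than those of the members. That run does not bear on small changes or on cultures shared by the 2 stromas. Libraries of the same number and genotype deviated together on the 2 stromas (correlations 0.58 to 0.83), and the block result stands with the alternatives. The study's methods call the 3 replicates biological, and the sources used here do not give how many embryos each held.

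Named members were those called, the 4 highest and 4 lowest by fold change in each genotype comparison and by level per kb, and members with fixed roles. Up to 4 genes of each other list were named by the smallest adjusted p. Rpl8, Rpl26 and Rpl35a and members named only in counts were added after their values were seen. Members and lists were chosen with earlier results of these data known. Some genes are not reported here. Transcript lengths, positions and shared stretches came from GENCODE, and promoters from RefSeq.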

Additional observations from a re-analysis of the deposited data

How the results depend on the processing

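Counts of members called were recomputed under 35 alternative settings and median fold changes under 30. In IkNull/OP9-DL1 against IkWT/OP9-DL1, 1 member (Rps2) was called higher under the settings that follow, given with the share of all genes called higher. With no minimum fold change that share was 9.96%, with TMM scaling and no minimum 9.68%, and with the replicate block and no minimum 19.2%. Without IkNull replicate 3 on both stromas it was 5.46%, and on 10 libraries it was 5.75% with edgeR and 10.1% with DESeq2. The number called lower there was 1 (Rpl22l1) at the same total (11.5% of all genes) and with the total outside the globin genes (7.65%). It was also 1 (Rpl22l1) with the replicate block and no minimum (15.1% of all genes) and without IkNull replicate 1 on both stromas (8.93%). It was 29 at the same total with no minimum (15.1% of all genes) and 19 with the total outside the globin genes and no minimum (10.8% of all genes). On OP9 it was 3 at the same total with no minimum and 1 (Rpl22l1) with the replicate block and no minimum. Leaving out each library in turn gave 0 to 1 members higher and 0 to 1 lower on OP9-DL1. Over these fits 3.93% to 14.1% of all genes were called higher there and 1.64% to 8.43% lower.

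The median log2 fold change on OP9-DL1 was -0.45 at the same total and -0.32 with the total outside the globin genes, and -0.25 to -0.04 with each library left out. On OP9 it was -0.33 at the same total, 0.05 without IkWT replicate 1 on both stromas, and -0.19 to 0.05 with each library left out. For the interaction that range was -0.21 to 0.06. With the replicate block 0 members were called at the 0.8 minimum in each comparison, and the medians were -0.18 on OP9-DL1 and -0.13 on OP9. At that minimum the block called 15.5% of all genes higher and 5.35% lower on OP9-DL1, and 12.9% and 4.34% on OP9. In these genotype comparisons the block matches cultures by number, a pairing that the labels do not state. Only numbers 1 and 3 occur in both genotypes, so the blocked genotype estimates rest on those cultures. The libraries of a culture on OP9-DL1 and OP9 were treated there as independent. The causes were not tested beyond what each scaling or omission does by construction. Other settings changed no count of members called. Each comparison of the main fit rests on 3 libraries a group. Copies that share reads limit Rpl29, Rpsa, Rpl26, Rps27 and Rpl21.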

Other observations

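Further rows named as copies of members differed between cultures more than the members did. Rpl21-ps8 had 815 normalized counts in IkNull replicate 1 on each stroma, and 1031 and 960 in IkWT replicate 1 (OP9-DL1 and OP9), while the other 8 libraries lay between 5.0 and 18.1. Rps19-ps6 had 770 and 765 in IkNull replicate 1 and 1228 and 1150 in IkWT replicate 1, against 283 to 352 in the other 8 libraries. Rps2-ps13 had 2.6 and 4.9 in IkNull replicate 1, against 561 to 987 in the other 10 libraries. Each row had like values on OP9-DL1 and OP9 within a culture. These rows were chosen after their values were seen, and no explanation of them was tested.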
